A study of Mus musculus with 6 samples.

Results

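The 9 genes described here restrain signalling by the T cell receptor (TCR) and were followed through the last steps of CD8 T cell development in the mouse thymus: Cd5, Cd6, Cbl, Cblb, Sla, Sla2, Ptpn6, Ptpn22 and Ubash3a. They were chosen by name, as genes known to dampen the receptor's signal, but with earlier results of these data known. Their counts beside those of all tested genes are therefore descriptions. Every probe whose platform annotation gave 1 of these symbols and no other was taken. This gave 19 probes for the 9 genes, of 34945 probes and 18193 genes with a single symbol on the array; all 9 genes passed the filter on dim genes and were among the 10916 tested. The series holds 6 microarrays of total RNA, 2 for each of 3 stages sorted on surface CD4 and CD8: double-positive (DP) cells, CD4intCD8+ cells, with CD4 at an intermediate level, and single-positive cells that keep CD8 alone (CD8SP). The cells of all 3 stages were sorted from 6 mice matched for age (5 to 6 weeks) and sex, in 2 independent experiments. Every animal carried the N15 TCR transgene (tg+/+), whose receptor sees a vesicular stomatitis virus peptide on H-2Kb, on an H-2b background and lacked Rag2 (RAG-2-/-). T cells in these mice thus bear the transgenic receptor and cannot assemble another, and the division of the animals between the experiments was not given in the sources used here. Nothing else ties an array to separate animals, so a p-value sets a difference between stages only against the spread of arrays, which may be technical. For each gene that spread was estimated in part from the other tested genes.

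When the TCR binds its ligand, the kinases Lck and Zap70 phosphorylate the CD3 chains and the adaptors behind them. The genes described here act against that step in different ways. Cd5 and Cd6 encode related surface glycoproteins with scavenger-receptor domains whose tails recruit inhibitory enzymes, and surface CD5 on thymocytes is known to follow the strength of TCR signalling. Cbl and Cblb encode E3 ubiquitin ligases that mark activated receptors and kinases for removal, and Sla and Sla2 encode SLAP adaptors that bring Cbl to the receptor; in DP thymocytes, SLAP and Cbl are known to keep surface TCR low. Ptpn6 encodes the tyrosine phosphatase SHP-1, Ptpn22 the phosphatase PEP, which acts on Lck with the kinase Csk, and Ubash3a the phosphatase-like protein STS-2, which binds Cbl.

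The labels were checked against stage markers. For Cd4, DP cells gave 351 and 515, CD4intCD8+ cells -33.0 and 11.8 and CD8SP cells -65.8 and -68.6. Cd4 thus set DP cells apart. The CD4intCD8+ and CD8SP values lay near or below 0, so they give no order between those stages and show no intermediate level of Cd4 RNA. Itgae, which encodes the CD103 integrin chain of CD8 cells, was at 61.3 and 41.6, then 368 and 278, then 1211 and 1029.8. Cd8a was between 1481 and 3566 on all 6 arrays, highest in DP cells. The T cell genes Cd3e, Cd3d, Cd3g and Thy1 were bright on every array (lowest value 638, for Cd3e on CD4intCD8+ replicate 2). The ratio of the actin gene's 3' to 5' probe, which rises as RNA gets shorter, was 1.98 and 2.14 in DP cells, 2.37 and 3.47 in CD4intCD8+ cells and 2.28 and 2.62 in CD8SP cells, so that it was highest on CD4intCD8+ replicate 2. Its part in the results was not tested beyond a fit that holds the ratio as a covariate, whose values are given where they change a call of the 9 genes.

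Of the 9 genes, 5 differed between CD8SP and DP cells, in both directions, where 19.8% of all tested genes were called. Sla, Cbl, Sla2 and, by a narrower margin, Cd5 were lower in CD8SP cells, and Cblb was higher. Cd6, Ptpn6, Ptpn22 and Ubash3a did not pass the test in any comparison. The plot of intensity by array shows 3 courses. The arrays of Sla lay lower at each later stage, though CD8SP against CD4intCD8+ cells was not called (adjusted p = 0.103). Cbl and Sla2 were lower in CD4intCD8+ than in DP cells, and their CD8SP arrays overlapped those of CD4intCD8+ cells. The arrays of Cblb's brightest probe lay higher at each later stage, though neither step was called on its own (adjusted p = 0.246 and 0.267). A call means an adjusted p under 0.05 in a limma fit to all 6 arrays, adjusted over the 10916 genes. In bulk samples, fewer cells that express a gene and less RNA of it per cell cannot be told apart.

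**Figure D1:**
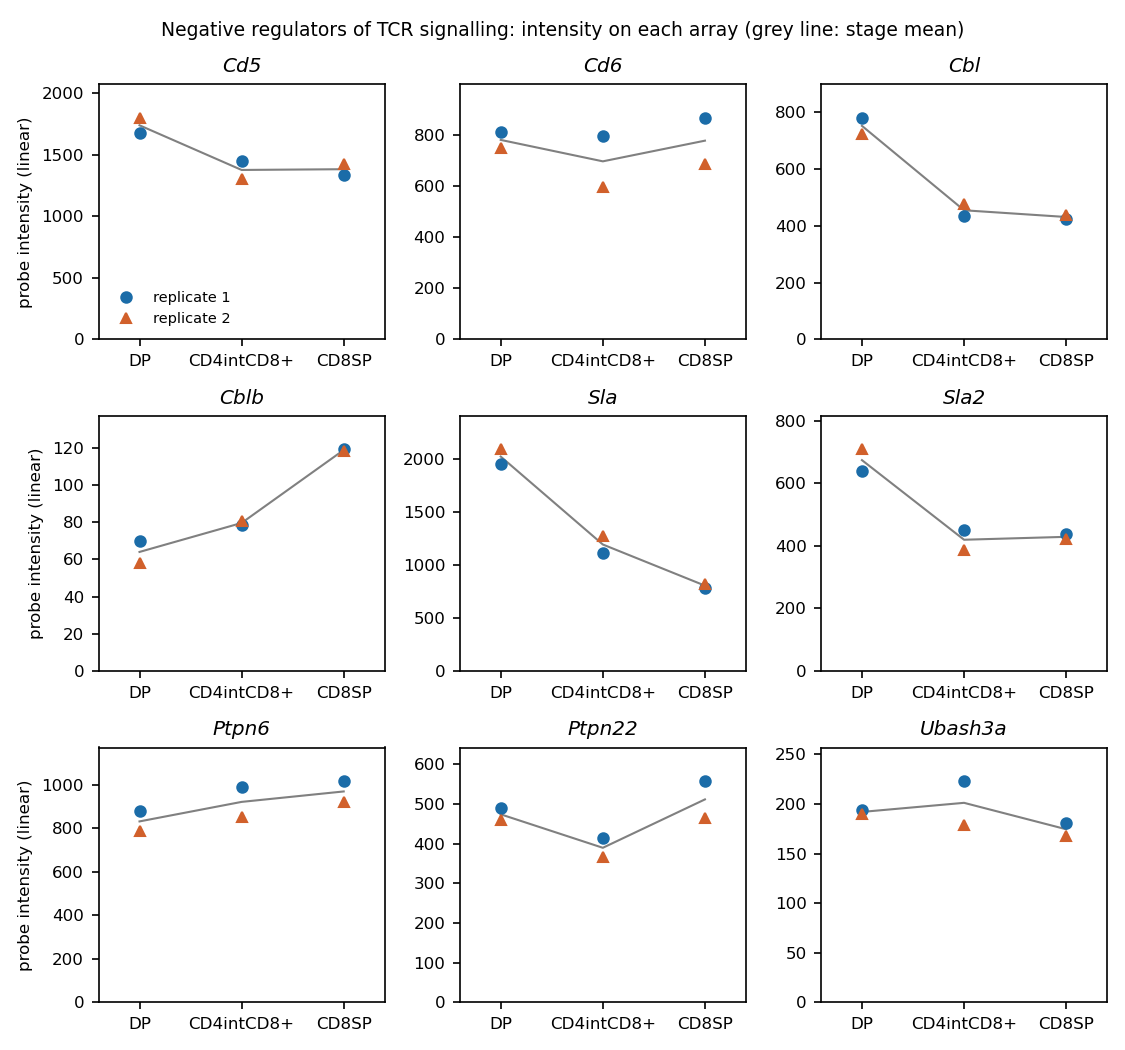
Linear probe intensity (vertical axes, from 0) of the 9 genes by stage, with replicate 1 as circles, replicate 2 as triangles and the stage mean as a grey line. Sla lies between 785 and 823 in CD8SP and between 1951 and 2089 in DP cells, and Cblb between 118 and 119 in CD8SP and between 58.2 and 69.9 in DP cells.

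In CD4intCD8+ against DP cells, 3 of the 9 genes fell, 0 rose and 6 were not called, while 11.7% of all tested genes were called, 4.84% as lower and 6.86% as higher. In CD8SP against CD4intCD8+ cells, 0 of the 9 were called by limma, where 0.119% of all genes were. An unadjusted p under 0.05 was found for 3 of the 9 (Cblb, Sla and Ptpn22), and for 1049 of all 10916 tested genes. In CD8SP against DP cells, 4 fell and 1 rose, where 8.35% of all genes were called lower and 11.5% higher (19.8% in all). The median log2 change of the 9 genes was -0.28, 0.04 and -0.13 in these comparisons, against 0.01, 0.00 and 0.01 over all tested genes. The comparisons with DP share the DP arrays. The arrays of both groups did not overlap for 6, 3 and 7 of the 9 genes, against 58.7%, 38.8% and 61.5% of all tested genes, so that separation of the arrays was about as common among the 9 as among all genes. The replicate number was also used as a block, on the assumption that same-numbered arrays came from the same experiment. With this block 4, 1 and 5 of the 9 were called, against 23.5%, 2.08% and 30% of all genes.

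**Figure D2:**
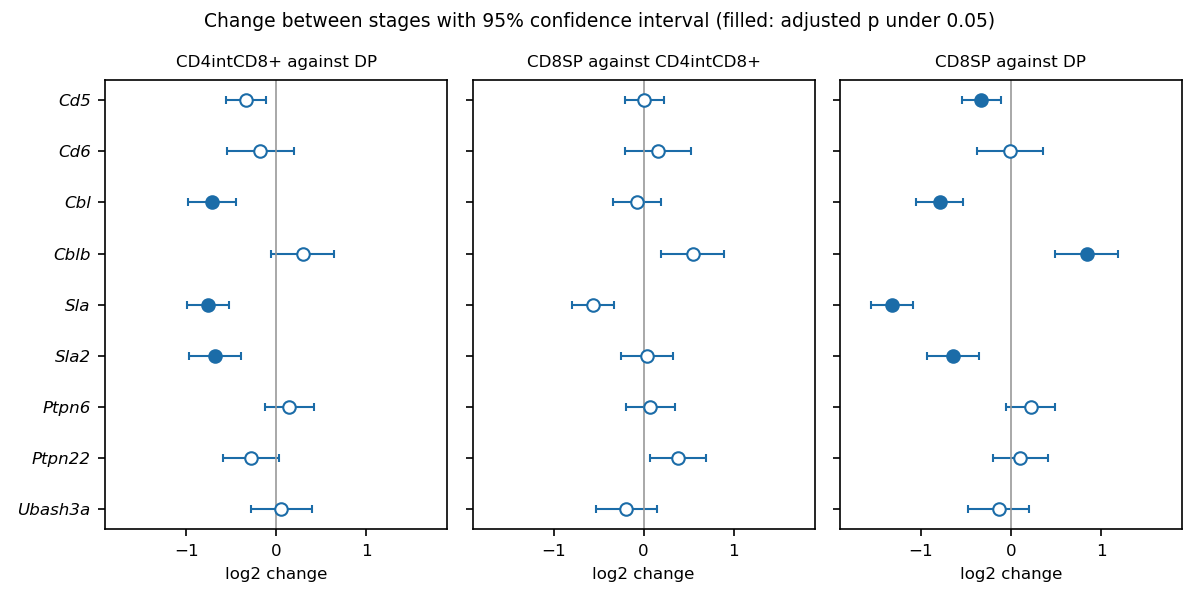
Log2 change (horizontal axes) of each gene in the 3 comparisons, with 95% confidence intervals from the limma fit; filled points have an adjusted p under 0.05. In CD8SP against CD4intCD8+ cells no point is filled, and in CD8SP against DP 4 filled points lie below 0 and Cblb, at 0.84, lies above.

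Upstream sequence is shown for a pair of genes that were lower in CD8SP than in DP cells, Sla2 and Cd5, beside 1 that did not pass the test, Ptpn6. The call of Cd5 was lost in 10 of 17 alternative settings. Cbl, whose call was kept in all 17, is not shown. The bases are those before the RefSeq transcript start (GRCm38.p6) and outside the gene's annotated span, 221, 198 and 250 of them, read 5' to 3' on the gene's strand. Capitals mark matches on either strand to 3 motifs. The E-box, read by E proteins such as those that act in DP thymocytes, was searched as CAGNTG. On the opposite strand it reads CANCTG. The Runx motif was searched as TGTGGT with its reverse complement. The ETS motif was searched as GGAAGT with its reverse complement.
Sla2, chr2:156887251-156887471, minus strand: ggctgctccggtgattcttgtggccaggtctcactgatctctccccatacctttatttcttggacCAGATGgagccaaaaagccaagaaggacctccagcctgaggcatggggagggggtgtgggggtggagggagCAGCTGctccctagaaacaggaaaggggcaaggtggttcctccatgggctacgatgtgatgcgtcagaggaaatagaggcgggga
Cd5, chr19:10739027-10739224, minus strand: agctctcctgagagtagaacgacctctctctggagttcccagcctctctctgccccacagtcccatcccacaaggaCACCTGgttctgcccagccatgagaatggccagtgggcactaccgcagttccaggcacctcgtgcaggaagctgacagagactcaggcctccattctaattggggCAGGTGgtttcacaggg
Ptpn6, chr6:124738710-124738959, minus strand: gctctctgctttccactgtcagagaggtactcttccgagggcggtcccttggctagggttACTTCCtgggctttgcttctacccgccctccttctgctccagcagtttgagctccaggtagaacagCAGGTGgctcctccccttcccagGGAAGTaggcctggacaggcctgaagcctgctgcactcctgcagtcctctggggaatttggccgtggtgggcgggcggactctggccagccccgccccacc
Sla2 and Cd5 each hold 2 E-box matches and Ptpn6 holds 1, and 41.0%, 38.0% and 44.8% of the 32851 promoters in the table hold at least 1 in windows of the same length and position. Ptpn6 also holds 2 ETS matches, and 19.7% of promoters hold at least 1 in a window of its length. Runx letters were found in none of the 3 windows (12.8%, 11.4% and 14.0% of promoters hold them), and no overlap between motifs occurred. These matches are descriptions of the letters alone.

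Sla, the SLAP adaptor, had the largest change of the 9 genes in both comparisons with DP cells. DP cells gave 1951 and 2089, CD4intCD8+ cells 1109.9 and 1273 and CD8SP cells 785 and 823. The stages did not overlap, and each later stage lay below the one before. The mean was 1192 ± 115 in CD4intCD8+ against 2020.2 ± 97.6 in DP cells (SD, n = 2 each), a log2 change of -0.76 ± 0.10 (SE; limma adjusted p = 0.00494). The mean of 804 ± 26.9 in CD8SP cells lay below that of CD4intCD8+ cells by -0.56 ± 0.10 on the log2 scale, which was not called (adjusted p = 0.103) but was with the replicate block (adjusted p = 0.00857). Over the whole span Sla fell by 1.32 on the log2 scale (SE 0.10, 2.5-fold, adjusted p = 0.000114). The calls against DP held in all 17 alternative settings, with adjusted p up to 0.0493 for CD4intCD8+ and up to 0.0033 for CD8SP.

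The array carries 4 probes for Sla, and all of them were lower in CD4intCD8+ and in CD8SP than in DP cells, though by different amounts. The brightest is described above. The probe of the _x_at type, which may also bind other transcripts, had 130 and 167 in CD4intCD8+ and 102 and 128 in CD8SP against 293 and 196 in DP cells. The third probe had 74.3 and 47.6 in CD4intCD8+ and 61.0 and 32.8 in CD8SP against 302 and 141 in DP cells, so that its DP arrays were far apart. The dimmest had 25.3 and 21.0 in CD4intCD8+ and 15.7 and 14.7 in CD8SP against 84.4 and 67.5 in DP cells. In a fit in which each probe was tested on its own, the log2 changes in CD8SP against DP cells were -1.32, -1.04, -2.07 and -1.95, all 4 called (adjusted p from 0.00013 to 0.0142), and those in CD4intCD8+ against DP cells were -0.76, -0.68, -1.70 and -1.49, 3 of them called. The direction was thus shared by the 4 probes, and the size was not. Sla lies within the span of Tg, the thyroglobulin gene, in the GRCm38.p6 annotation; the brightest Tg probe was between 7.94 and 25.9 on the 6 arrays, under the filter on dim genes.

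Sla2, which encodes the related adaptor SLAP-2, was lower in CD4intCD8+ than in DP cells and about level after that. DP cells gave 639.9 and 709.6, CD4intCD8+ cells 452 and 387 and CD8SP cells 437 and 422. The DP arrays stood above the other 4, which overlapped. CD4intCD8+ cells differed from DP cells by -0.68 ± 0.13 (SE, adjusted p = 0.0127) and CD8SP from DP cells by -0.64 ± 0.13 (adjusted p = 0.0086), while CD8SP differed from CD4intCD8+ cells by 0.04 (95% interval -0.25 to 0.32). The first call was lost without DP replicate 1, DP replicate 2 or CD4intCD8+ replicate 2 (adjusted p = 0.0557, 0.0879 and 0.0798) and in the fit that holds the actin ratio (-0.53, adjusted p = 0.145), and the second without DP replicate 2 (adjusted p = 0.0684). The second probe of Sla2 had 117 and 128 in CD4intCD8+ and 149 and 138 in CD8SP against 172 and 163 in DP cells, with log2 changes of -0.44 and -0.21, neither called. In CD8SP against CD4intCD8+ cells the change of Sla2 exceeded that of Sla by 0.60 on the log2 scale. An exact two-sided permutation of 2 and 2 arrays cannot give a p under 0.333 whatever the values, so the design allows no such test of this difference.

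Cbl, the E3 ligase with which SLAP works, followed the same course as Sla2 in level. DP cells gave 779.6 and 723, CD4intCD8+ cells 432 and 476 and CD8SP cells 422 and 439. The DP arrays were the highest, and the CD4intCD8+ and CD8SP arrays overlapped. Cbl fell to a mean of 454 ± 30.9 in CD4intCD8+ cells, against 751 ± 40.3 in DP cells (SD, n = 2 each), a log2 change of -0.72 ± 0.12 (SE, adjusted p = 0.00861), and the log2 change in CD8SP against DP cells was -0.79 ± 0.12 (adjusted p = 0.00218). CD8SP cells differed from CD4intCD8+ cells by -0.07 (95% interval -0.34 to 0.19). With either DP array left out, the first call missed the threshold (adjusted p = 0.0645 for replicate 1 and 0.0524 for replicate 2), and the second held in all 17 alternative settings. The 3 probes of Cbl shared the direction: in CD8SP against DP cells they changed by -0.79, -0.998 and -0.83, all called (adjusted p from 0.00269 to 0.031). In CD4intCD8+ against DP cells they changed by -0.72, -0.97 and -0.50. There the dimmest was not called in the limma fit of single probes (adjusted p = 0.182). The second had 120.4 and 118 in CD4intCD8+ and 121 and 112 in CD8SP against 218 and 262 in DP cells, and the dimmest had 35.7 and 29.1 in CD4intCD8+ and 26.5 and 22.7 in CD8SP against 48.4 and 47.8 in DP cells.

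Cblb, the paralogue of Cbl that sets the threshold of activation in mature T cells, went the other way. Its brightest probe gave 69.9 and 58.2 in DP cells, 78.8 and 80.4 in CD4intCD8+ cells and 119 and 118 in CD8SP cells. Each stage lay above the one before with no overlap. The rise in CD8SP against DP cells was 0.84 ± 0.15 on the log2 scale (SE, 1.79-fold, adjusted p = 0.0062), with means of 119 ± 0.57 in CD8SP and 64.0 ± 8.28 in DP cells (SD, n = 2 each). The steps taken singly were not called: 0.30 ± 0.15 for CD4intCD8+ against DP (adjusted p = 0.246) and 0.55 ± 0.15 for CD8SP against CD4intCD8+ (adjusted p = 0.267). The call over the whole span was lost without DP replicate 2 (0.72, adjusted p = 0.0544) and kept in the other 16 alternative settings. The other 2 probes were higher in CD8SP than in DP cells by 0.54 and 0.49, neither called (adjusted p = 0.0986 and 0.233). The second had 59.5 and 84.4 in CD4intCD8+ and 80.2 and 88.9 in CD8SP against 55.0 and 57.4 in DP cells, so that CD4intCD8+ and CD8SP arrays overlapped. The dimmest had 26.1 and 28.0 in CD4intCD8+ and 32.7 and 43.8 in CD8SP against 30.5 and 20.8 in DP cells, with the CD4intCD8+ arrays within the range of the DP arrays. Stages that did not overlap at either step were thus seen on 1 of the 3 probes. Over the whole span the change of Cblb exceeded that of Cbl by 1.63 on the log2 scale. That difference was likewise beyond a permutation test, and the opposed directions are those of the 2 calls.

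**Figure D3:**
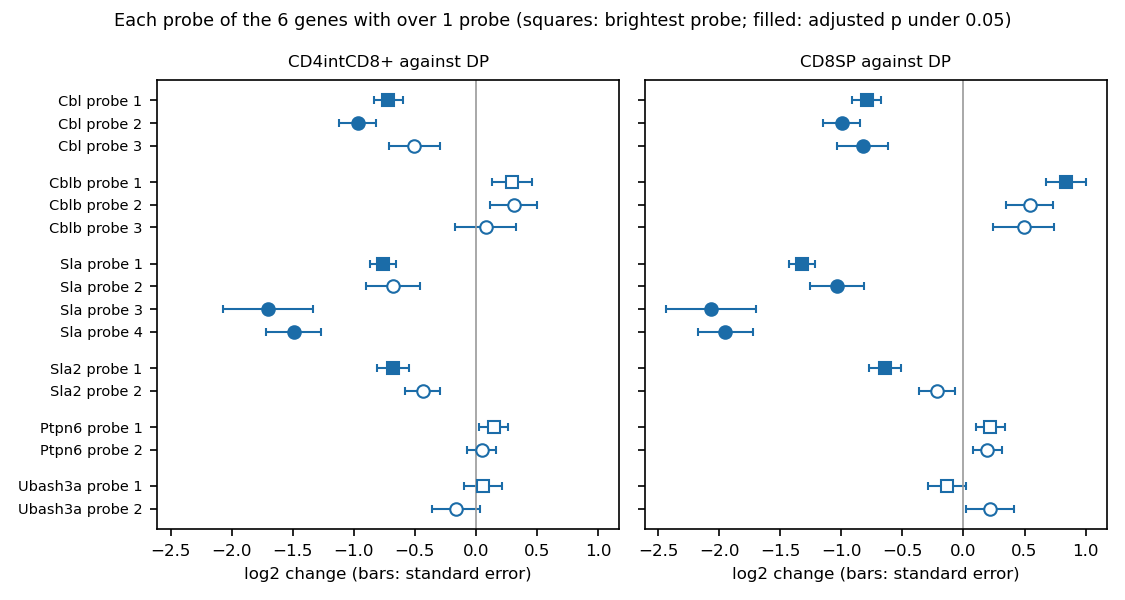
Log2 change from DP (horizontal axes, with standard errors) of each probe of the 6 genes that have more than 1 probe, in order of brightness within a gene; squares mark the probe that stands for the gene, and filled symbols have an adjusted p under 0.05 in the fit over 20967 probes. All Sla and Cbl probes lie below 0 and all Cblb probes above, while the 2 Ubash3a probes lie on opposite sides.

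Of the 19 probes, 6 were called in CD4intCD8+ against DP cells (7.45% of all probes tested), 0 in CD8SP against CD4intCD8+ cells (0.0858%) and 9 in CD8SP against DP cells (13.9%). Those 9 were all 3 of Cbl, all 4 of Sla, 1 of 3 of Cblb and 1 of 2 of Sla2.

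Of the surface receptors, Cd5 gave 1678 and 1801 in DP cells, 1448 and 1306 in CD4intCD8+ cells and 1337 and 1429 in CD8SP cells. The DP arrays were the highest, and the other 4 overlapped. The log2 change of Cd5 in CD8SP against DP cells was -0.33 ± 0.10 (SE, 1.26-fold, adjusted p = 0.0427) and in CD4intCD8+ against DP cells -0.34 ± 0.10, which was not called (adjusted p = 0.0545) but was with the replicate block (adjusted p = 0.0183). The call in CD8SP against DP cells was lost in 10 of 17 alternative settings, among them each of those that leave out DP replicate 1, DP replicate 2, CD8SP replicate 1 or CD8SP replicate 2 (adjusted p from 0.0922 to 0.191), after quantile normalization (-0.25, adjusted p = 0.0996) and in the fit that holds the actin ratio (-0.30, adjusted p = 0.0737). CD8SP and CD4intCD8+ cells differed by 0.01 (95% interval -0.21 to 0.23). Cd6, a neighbour of Cd5 on the chromosome with 1 annotated gene wholly between them, had 811 and 750.5 in DP cells, 797 and 596 in CD4intCD8+ cells and 867 and 688 in CD8SP cells. Its stages overlapped. CD4intCD8+ differed from DP cells by -0.18 (95% interval -0.54 to 0.19), CD8SP from CD4intCD8+ cells by 0.16 (-0.21 to 0.53), and CD8SP differed from DP cells by -0.01 (95% interval -0.38 to 0.35).

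Ptpn6, Ptpn22 and Ubash3a were not called by limma in any comparison, and 1 of their tests, of Ptpn22 in CD8SP against CD4intCD8+ cells, had an unadjusted p under 0.05. Ptpn6 had 878.5 and 787 in DP cells, 990.0 and 855 in CD4intCD8+ cells and 1019.6 and 921 in CD8SP cells, and replicate 1 was the higher array at each stage. The CD8SP arrays lay above the DP arrays, by 0.22 ± 0.12 on the log2 scale (95% interval -0.05 to 0.49, adjusted p = 0.237, and 0.0791 with the replicate block). Its second probe, with 799 and 764 in CD8SP against 689.9 and 672 in DP cells, gave 0.20 for the same comparison. Ptpn22 was lowest at the intermediate stage, with 489 and 458 in DP cells, 413 and 366 in CD4intCD8+ cells and 558 and 464 in CD8SP cells. CD4intCD8+ cells did not overlap with DP cells (-0.28 ± 0.14, adjusted p = 0.213), nor CD8SP with CD4intCD8+ cells (0.38 ± 0.14, adjusted p = 0.394), and neither difference passed the test. Ubash3a had 194 and 189.6 in DP cells, 223 and 179 in CD4intCD8+ cells and 181 and 168 in CD8SP cells. In CD8SP against DP cells it differed by -0.13 (95% interval -0.47 to 0.21) on its brightest probe and by 0.22 on the other, which had 46.6 and 44.4 in CD8SP against 37.7 and 38.8 in DP cells, so that no direction is given.

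**Figure D4:**
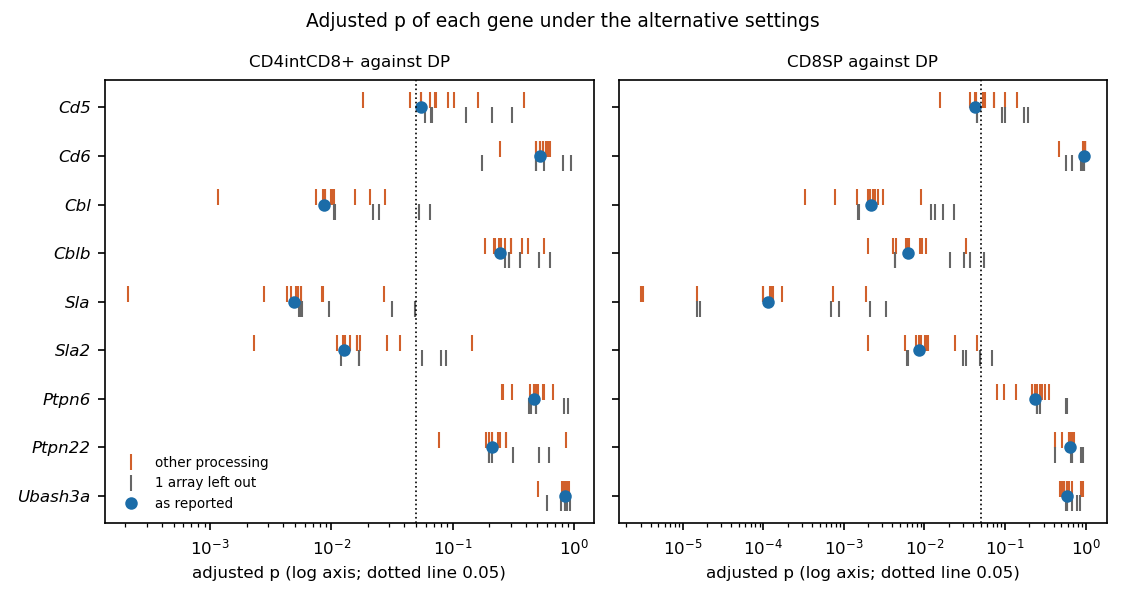
Adjusted p (horizontal log axes, dotted line at 0.05) of each gene in CD4intCD8+ against DP and in CD8SP against DP, as reported (circles), under other processing (upper ticks) and with 1 array left out (lower ticks). All marks of Sla lie left of the line in both panels, whereas those of Cd5 lie on both sides of it.

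Among 15 tested genes of a list of other inhibitors of proximal signalling, 5 fell, 0 rose and 10 were not called in CD4intCD8+ against DP cells, and 4 fell and 1 rose in CD8SP against DP cells (median log2 change -0.19 and -0.18, against 0.01 for all genes in each case). Of all tested genes, 4.84% fell in the first of these comparisons, and 8.35% fell and 11.5% rose in the second. With the replicate block, 23.5% and 30% of all genes were called in either direction. Of this list, 6 then fell in the first comparison, and 5 fell and 1 rose in the second. Sit1, a transmembrane adaptor that recruits SHP-2 and Csk, was the largest of them: its mean intensity was 316 in CD4intCD8+ against 628 in DP cells, and it was lower still in CD8SP cells (log2 change against DP -0.99 ± 0.15 and -1.31 ± 0.15, adjusted p = 0.00752 and 0.00072). Dok2, an adaptor that brings in Ras inhibitors, changed by -0.76 and -0.88, and Inpp5d, the lipid phosphatase SHIP-1, by -0.62 and -0.50. Dgka and Dgkz, the kinases that remove diacylglycerol, changed by -0.45 and -0.48 in CD4intCD8+ against DP cells, both called. In CD8SP against DP cells Dgkz was called again (-0.47, adjusted p = 0.0199), while Dgka differed by -0.08 and was not called (adjusted p = 0.619). For Dgka, CD8SP against CD4intCD8+ cells gave 0.36, which was called with the replicate block (adjusted p = 0.0425) and not without it (adjusted p = 0.272). The gene that rose was Lax1, an adaptor related to Lat, by 0.56 ± 0.16 in CD8SP against DP cells (adjusted p = 0.0347). The calls of Sit1 and Dok2 for CD8SP against DP cells held in all 17 alternative settings. The other calls of Sit1, Dok2, Inpp5d and Lax1 given here were each lost without at least 1 of the DP arrays. So was the call of Dgkz in CD4intCD8+ against DP cells. In that comparison the calls of Sit1, Dok2, Inpp5d and Dgkz were lost in 2, 4, 4 and 5 of 17 alternative settings. In CD8SP against DP cells those of Inpp5d and Lax1 were lost in 4 of 17 and 5 of 16. The call of Dgkz in CD8SP against DP cells and that of Dgka were not put through the 17 settings. Of 11 E3 ligases and adaptors that limit activation, 1 fell at the first step and 2 over the whole span, against 4.84% and 8.35% of all genes, and 0 rose. Few genes are behind these shares, and in either direction 11.7% and 19.8% of all genes were called. In CD8SP against DP cells, Tnfaip3, the ubiquitin-editing enzyme A20, fell by 1.04 (log2, adjusted p = 0.00907). Sh3kbp1, a Cbl-binding adaptor, fell by 0.44 (adjusted p = 0.0226). Both calls were lost without DP replicate 1. In all, that of Tnfaip3 was lost in 1 of 17 alternative settings and that of Sh3kbp1 in 5. Tnfaip3 was the gene that fell at the first step, a call lost in 10 of 17 alternative settings (adjusted p up to 0.436). The medians of this list were -0.20 and -0.22. With the block, where 23.5% and 30% of all genes were called, 3 fell and 1 rose at the first step. Over the whole span 4 fell and 1 rose with it. The gene that rose was Ndfip1, an activator of Itch-type ligases (0.41 and 0.48, adjusted p = 0.0161 and 0.00533 with the block, and 0.25 and 0.156 without it).

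**Figure D5:**
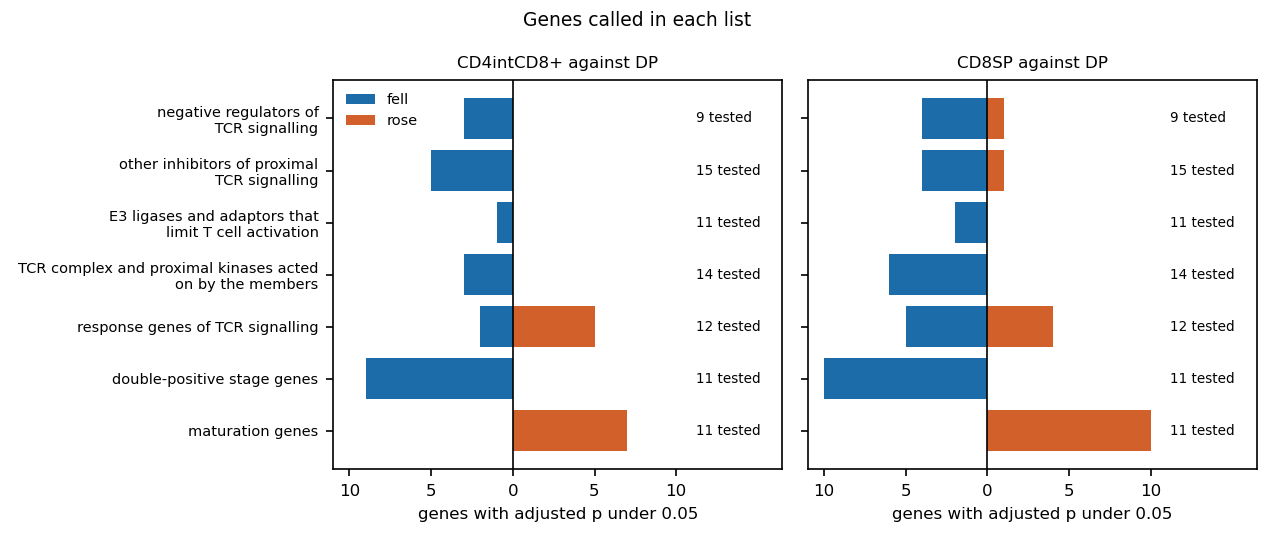
Number of genes with an adjusted p under 0.05 (horizontal axes) that fell (left of 0) or rose (right of 0) in each gene list, for CD4intCD8+ against DP and CD8SP against DP, with the number tested at the right. Of the negative regulators 3 fell at the first step, and 4 fell and 1 rose over the whole span.

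Genes of the signalling chain on which these inhibitors act were counted in the same way. Of 14 tested genes of the TCR complex and its kinases, 3 fell in CD4intCD8+ against DP cells and 6 in CD8SP against DP cells, with 0 rising, against 4.84% and 8.35% of all genes; the medians were -0.36 and -0.40. With the replicate block 9 and 9 fell, where 23.5% and 30% of all genes were called in either direction. At the first step the genes that fell were Cd247, Cd28 and Lat, whose calls were lost in 9, 5 and 4 of 17 alternative settings. In CD8SP against DP cells, Cd28, the costimulatory receptor, changed by -1.47 ± 0.17, Lcp2, the adaptor SLP-76, by -0.73 ± 0.16, Cd247, the zeta chain that SLAP and Cbl target, by -0.70 ± 0.12 and Lat, the adaptor that Zap70 phosphorylates, by -0.57 ± 0.11. The call of Lat was lost without DP replicate 2, that of Lcp2 without DP replicate 1, without CD8SP replicate 2 and with the mean of all probes, and that of Cd247 with the mean of all probes (adjusted p from 0.0600 to 0.0976). Of 12 response genes of TCR signalling, 5 rose and 2 fell in CD4intCD8+ against DP cells (6.86% and 4.84% of all genes). In CD8SP against DP cells 4 were higher and 5 lower (11.5% and 8.35% of all genes). Nr4a3 had a mean of 189.8 in CD8SP against 32.6 in DP cells, and Myc 186 against 35.8. Itm2a, a membrane protein gene of positive selection, was at 1119 against 2710.2. With the replicate block 5 response genes rose and 3 fell at the first step, and 5 rose and 5 fell over the whole span. Of 11 tested double-positive stage genes 9 fell at the first step and 10 over the whole span (4.84% and 8.35% of all genes), and of 11 maturation genes 7 and 10 rose (6.86% and 11.5%). With the block 10 and 10 double-positive stage genes fell and 10 and 11 maturation genes rose, where 23.5% and 30% of all genes were called in either direction. In CD8SP against CD4intCD8+ cells, limma called 1 gene of all these lists, the maturation gene Itgae (1.78, adjusted p = 0.0145). At an unadjusted p under 0.05 there were 1049 of all 10916 tested genes. Among them were 1 of the other inhibitors, 1 of the E3 ligases and adaptors and 3 of the TCR complex genes. There were also 6 of the response genes, 5 of the double-positive stage genes and 10 of the maturation genes. With the replicate block, the calls in this comparison were 8 maturation genes and 1 other inhibitor (Dgka) that rose, and 4 double-positive stage genes, 2 response genes and 1 TCR complex gene that fell, where 2.08% of all genes were called.

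By the Pearson correlation of log2 values over the 6 arrays, the tested genes most like Sla were Plxdc2 (r = 0.9998) and Mbtd1 (0.998), those most like Cbl were Prrt1 (0.997) and Zfp575 (0.996), and those most like Sla2 were Itpkb (0.998) and Lat (0.998). These 6 arrays hold only 3 stages, and 253, 245 and 199 of 10907 genes correlated above 0.95 with Sla, Cbl and Sla2. Plxdc2 had 42.8 and 44.99 in CD8SP against 167 and 186 in DP cells.

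Several of these regulators are also expressed in other blood cells, so markers of such cells were examined. None of the 4 tested myeloid genes of 10 listed was called by limma in any comparison, nor had any an unadjusted p under 0.05, and the summed intensity of the 10 was 249 and 270 in DP cells, 290 and 335 in CD4intCD8+ cells and 289 and 348 in CD8SP cells. The B cell markers Cd79a and Pax5 were under the filter (Cd79a between 9.48 and 15.8), and the sum of the 7 B cell genes on the array, most of it Ighm, was 2269 and 2680.2 in DP cells, 2185 and 1980.3 in CD4intCD8+ cells and 2250.3 and 2274 in CD8SP cells. Of 5 tested B cell genes, Cd79b alone was called, in CD8SP against DP cells (0.90, adjusted p = 0.0118). The summed dendritic list was 234 and 234 in DP cells, 372 and 399.8 in CD4intCD8+ cells and 412 and 599.8 in CD8SP cells, with 3 of 4 tested genes (Cd74, H2-Aa and H2-Ab1) higher in CD8SP than in DP cells, while Itgax, Flt3, Siglech and Xcr1 were under the filter. Zbtb46 was not called by limma (0.24 in CD8SP against DP cells, adjusted p = 0.517). In CD8SP against DP cells, Itgax had 23.3 and 25.9 against 22.4 and 29.0, and Flt3 23.4 and 27.7 against 39.6 and 28.8. Siglech had 24.4 and 13.5 against 17.3 and 22.9, and Xcr1 9.23 and 11.9 against 5.19 and 6.99. The higher sum thus lay mostly in Cd74, H2-Aa and H2-Ab1. The sum moved in the same direction as Cblb, and its part in that result was not tested. The summed epithelial list was 181 and 192 in DP cells, 209 and 213 in CD4intCD8+ cells and 226 and 234 in CD8SP cells. Ly75 was the 1 of 3 tested genes called (in CD8SP against DP cells), and Foxn1, Krt8 and Psmb11 were under the filter. Ly75 had 30.0 and 28.5 in DP and 91.0 and 89.7 in CD8SP cells, so that the higher CD8SP sum lay in this gene. Of the other tested genes, Krt5 had 43.8 and 42.0 in DP and 24.6 and 35.2 in CD8SP cells, and the arrays of Epcam overlapped. Of the erythroid and of the natural killer and gamma delta lists, 2 genes each were tested and 0 were called by limma in any comparison, with 0 at an unadjusted p under 0.05. The erythroid sum was 178 and 142 in DP cells, 131 and 104 in CD4intCD8+ cells and 152 and 141 in CD8SP cells. The natural killer and gamma delta sum was 127 and 128 in DP cells, 109 and 132 in CD4intCD8+ cells and 177 and 155 in CD8SP cells, and Klra8 was near 0 throughout (-0.67 to 9.43). With the replicate block 6 further tests of marker genes passed: Lyz2 (myeloid, adjusted p = 0.0479), H2-Aa (dendritic, 0.0442) and Ly75 (epithelial, 0.0446) were higher and Ighm (B cell, 0.0385) lower in CD4intCD8+ against DP cells, Ly75 was higher in CD8SP against CD4intCD8+ cells (0.0321), and Alas2 (erythroid, 0.0398) was lower in CD8SP against DP cells.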

How the data were processed

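The deposited table gives 1 linear intensity for each of 45101 probes on 6 arrays, 64 of them control probes; how the authors computed, scaled and normalized these intensities was not given in the sources used here. Of the non-control values 3.60% lay below 0 and array medians lay between 24.9 and 25.7. Negative intensities were raised to 0 and 5.84, the 10th percentile of positive values, was added before the log2, a scale that understates changes of dim genes. Each gene was represented by its brightest probe, genes under the 40th percentile of the mean (intensity 30.8) were left out, and 6 arrays were fitted with limma 3.58.1 in R 4.3.3 (lmFit and eBayes with an intensity trend, with no term but stage; residual degrees of freedom 3, prior 6.05), with Benjamini-Hochberg adjustment over 10916 genes. A ± gives the standard error for a log2 change and, where marked, the SD over 2 arrays. Precision is limited by having only 6 arrays. The sample titles gave each array's stage and replicate number. Same-numbered arrays deviated together, with correlations across genes of 0.26, 0.21 and 0.30 for the 3 pairs of stages. The labels name 2 independent experiments, so the numbers were taken to pair the arrays. Replicate 2 also had the higher actin ratio at each stage, so a shared experiment and RNA quality cannot be told apart here. Values with the replicate block are given where they change a call of the 9 genes, and as counts for the gene lists.

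The 9 genes and the gene lists were chosen with earlier results of these data known. Named genes are the 9 members with all probes, up to 4 called genes of each list per comparison with the largest change, and the 2 genes most correlated with each of the 3 members with the smallest moderated F p. Dgka and Ndfip1 were named outside this rule after their values were seen, as were the single genes picked from the lists of stage and cell type markers. Alternatives covered the pseudocount, the filter, quantile normalization, the choice of probe, the trend, the arrays fitted, the block, the actin ratio and leaving out each array.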

Additional observations from a re-analysis of the deposited data

How the results depend on the processing

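Over 17 alternatives to the reported processing, Sla in both comparisons with DP cells and Cbl in CD8SP against DP cells kept their calls in all 17, and no called change of the 9 genes turned its sign. The call that failed most often was Cd5 in CD8SP against DP cells, lost in 10. Leaving out each array in turn, 1 to 3 of the 9 genes were called in CD4intCD8+ against DP cells (1 without DP replicate 1, 1 without DP replicate 2), 0 in CD8SP against CD4intCD8+ cells and 2 to 5 in CD8SP against DP cells (2 without DP replicate 2). Over all genes these ranges were 185 to 1400, 6 to 71 and 995 to 2352, against 1277, 13 and 2166 with all arrays. With the replicate block 4, 1 and 5 of the 9 genes and 2562, 227 and 3277 of all genes were called, and apart from Cd5 in CD4intCD8+ against DP cells and Sla in CD8SP against CD4intCD8+ cells the block changed no call of the 9. In CD4intCD8+ against DP cells, 468 genes were called with the actin ratio as a covariate, 764 with the mean of all probes and 801 without the intensity trend. In CD8SP against CD4intCD8+ cells these were 34 with the actin ratio, 2 with the mean of all probes, 8 with a 60th percentile filter and 8 with only the 4 arrays compared. There, 84.6% of the calls were higher in CD8SP cells, but 73.3% after quantile normalization, 60.4% with the block, 58.8% with the actin ratio, 50% with the mean of all probes and 33.3% (5 higher, 10 lower) without CD8SP replicate 2. The cause was not tested.

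The sign turned only for changes that were not called. In the fit that holds the actin ratio, CD8SP against CD4intCD8+ cells gave -0.032 for Cd5, -0.043 for Cd6, -0.032 for Ptpn6 and -0.047 for Sla2, and Cd6 gave 0.20 in CD4intCD8+ against DP cells and 0.15 in CD8SP against DP cells. With the mean of all probes Ubash3a gave -0.052 in CD4intCD8+ against DP cells, 0.095 in CD8SP against CD4intCD8+ cells and 0.043 in CD8SP against DP cells. After quantile normalization Cd6 gave 0.017 in CD8SP against DP cells. With 1 array left out, the range in CD8SP against CD4intCD8+ cells was -0.067 to 0.082 for Cd5, -0.046 to 0.37 for Cd6, -0.031 to 0.18 for Ptpn6 and -0.075 to 0.15 for Sla2. It was -0.38 to 0.032 for Cd6 and -0.099 to 0.21 for Ubash3a in CD4intCD8+ against DP cells, and -0.18 to 0.15 for Cd6 and -0.028 to 0.24 for Ptpn22 in CD8SP against DP cells.

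With 2 arrays a stage, differences within the 95% intervals given for the genes that were not called could not be judged. A fit without 1 array leaves 1 array at that stage, which is then assumed to vary like the others. The array reads a short stretch of each transcript. The probes of Sla, Sla2, Cbl and Cblb did not all give the same call, nor those of Ubash3a the same sign.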
